A study of Mus musculus with 24 samples.

Results

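The miRNAs described here are 5 mature miRNAs known from striated muscle, measured in the subcutaneous fat of mice. They are miR-1a-3p (MIMAT0000123), miR-133a-3p (MIMAT0000145), miR-133b-3p (MIMAT0000769), miR-206-3p (MIMAT0000239) and miR-499-5p (MIMAT0003482). They were chosen by identifier, with earlier results of these data known, and occupy 7 of the 2045 loci counted. After loci with the same mature identifier were summed, they were 5 of 1907 mature miRNAs. All 5 passed the filter on low counts, which left 582 miRNAs for testing.

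The study sequenced small RNA from subcutaneous adipose tissue of female mice fed chow and kept at 22 °C with 12 hours of light. Its 24 libraries form 4 groups of 6: wild type sedentary, wild type trained, kinase dead sedentary and kinase dead trained. Trained mice ran on a treadmill at 16 m/min for 1 hour on 5 days a week over 6.5 weeks, and a running wheel was freely available to them. Which kinase the kinase dead genotype inactivates, through which promoter or allele, the age of the mice and the exact fat depot were not stated in the labels used. The comparisons ask how these miRNAs stood in fat after training, and whether that depended on the kinase genotype.

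miR-1 and miR-133 are the most abundant miRNAs particular to skeletal and heart muscle, and they are cut from shared primary transcripts. In cultured myoblasts, miR-1 is known to favour differentiation and miR-133 proliferation, and miR-133 also restrains the brown fat programme in fat precursor cells. miR-206 is made in skeletal muscle and induced in regenerating fibres, and miR-499, encoded inside a slow myosin gene, is known from slow fibres and the heart.

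The mature sequences below show how the seeds of miR-133b, miR-206 and miR-499 differ from each other. They also show how near that of miR-499 is to the seed of miR-208a and miR-208b. The sequences are RefSeq entries on GRCm38.p6, written 5′ to 3′, with the seed (bases 2 to 8), the stretch that pairs with targets, in capitals.
miR-133b-3p: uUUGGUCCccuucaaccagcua
miR-206-3p: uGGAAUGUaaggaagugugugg
miR-499-5p: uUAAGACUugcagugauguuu
miR-208a-3p: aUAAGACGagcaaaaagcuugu
miR-208b-3p: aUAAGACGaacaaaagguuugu
Bases 2 to 7 of miR-499-5p were shared with 2 other RefSeq entries, miR-208a-3p and miR-208b-3p, whose full seeds were the same as each other.

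The hairpins of the same 3 miRNAs show which arm the counts belong to, with the counted arm in capitals. They are the RefSeq hairpins on the same build.
Mir206: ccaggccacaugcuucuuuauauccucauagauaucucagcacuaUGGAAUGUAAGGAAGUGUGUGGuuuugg
Mir133b: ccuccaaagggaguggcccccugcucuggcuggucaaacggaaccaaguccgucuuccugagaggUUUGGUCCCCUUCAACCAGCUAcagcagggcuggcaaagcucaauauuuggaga
Mir499: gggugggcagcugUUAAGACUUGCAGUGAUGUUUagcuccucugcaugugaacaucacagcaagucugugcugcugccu
In each of these hairpins 1 arm held nearly all reads. Summed over the 24 libraries, miR-206-3p had 6057 reads and miR-206-5p had 0. miR-133b-3p had 3647 reads and its 5p arm 1. miR-499-5p had 1384 reads and its 3p arm 7.

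On GRCm38 (mm10), miR-206-3p lies at chr1:20679055-20679076 and miR-133b-3p at chr1:20682834-20682855, both on the plus strand. Both sit in exons of Gm28653, a long noncoding RNA gene that RefSeq names Lincmd1 and that spans 20669882 to 20684298. miR-499-5p lies at chr2:155622893-155622913 on the plus strand, in an intron of Myh7b, a slow myosin heavy chain gene, which spans 155611212 to 155634307. miR-1a-3p and miR-133a-3p each have 1 copy on chromosome 2, at chr2:180389096-180389117 and chr2:180398437-180398458 on the plus strand, in the RefSeq host gene Mir1a-1hg. Their other copies lie together on chromosome 18, in an intron of Mib1 on the strand opposite to that gene.

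The copies could not be told apart by these counts. The first copy held 48.5 to 51.8% of the reads of miR-1a-3p in the 24 libraries and 46.5 to 53.7% of those of miR-133a-3p, so only the sums are given. miR-1b-5p, which overlaps the chromosome 18 copy of miR-1a on the opposite strand, was listed with 235533 reads, the same total as that copy, and so has no value of its own. miR-133a-3p and miR-133b-3p are near-identical in sequence, so how reads were split between them is uncertain.

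All 5 miRNAs were read in all 24 libraries, and 1 of them made up most of their sum. Library totals ran from 1.60 to 23.6 M reads, at which 3 reads stand for 0.116 to 1.76 CPM (reads scaled to a common library size, here with TMM factors). miR-1a-3p, at a mean of 2136 CPM, was 55th by level among the 582 tested miRNAs and held 81.1 to 92.0% of the summed level of the 5. miR-133a-3p followed at a mean of 235 CPM (rank 149), then miR-206-3p at 24.7 (rank 290), miR-133b-3p at 17.2 (rank 313) and miR-499-5p at 6.26 (rank 402). miR-206-3p and miR-133b-3p overlapped over the 24 libraries, with 1.997 to 99.4 and 2.92 to 71.4 CPM, so their order is not separated by the spread.

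miR-1a-3p, the muscle miRNA of highest level here, ranged from 577 to 6800 CPM in wild type sedentary (median 1327) and from 992 to 5506 in wild type trained libraries (median 3329). In kinase dead libraries it ranged from 395 to 7366 CPM in the sedentary (median 685) and from 635 to 2089 in the trained group (median 1026). Each sedentary group held 1 library far above its others, wild type replicate 2 and kinase dead replicate 2. The wild type trained group held 3 high libraries, and the kinase dead trained group held none.

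miR-133a-3p, transcribed together with miR-1a, had the same high libraries. It ranged from 69.9 to 739 CPM in wild type sedentary (median 160) and from 113 to 649 in wild type trained libraries (median 313). The kinase dead groups ranged from 50.5 to 1014 CPM when sedentary (median 102) and from 49.9 to 226 when trained (median 115). The groups overlapped in all 4 comparisons of 2 groups.

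miR-133b-3p and miR-206-3p, neighbours on chromosome 1, were scarcer. miR-133b-3p ranged from 7.55 to 51.3 CPM in wild type sedentary (median 15.1), 5.97 to 46.0 in wild type trained (median 20.7), 2.92 to 71.4 in kinase dead sedentary (median 6.67) and 3.11 to 17.6 in kinase dead trained libraries (median 8.82). miR-206-3p ranged from 1.997 to 40.5 CPM in wild type sedentary (median 20.4), 8.64 to 99.4 in wild type trained (median 37.1), 4.90 to 34.4 in kinase dead sedentary (median 9.80) and 2.28 to 52.6 in kinase dead trained libraries (median 12.3). The highest library of miR-206-3p was wild type trained replicate 6, whereas that of the other 3 named so far was kinase dead sedentary replicate 2.

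miR-499-5p, encoded in Myh7b, varied least. It ranged from 2.84 to 9.59 CPM in wild type sedentary (median 4.86), 6.15 to 9.46 in wild type trained (median 8.48), 2.03 to 6.17 in kinase dead sedentary (median 4.40) and 3.82 to 11.02 in kinase dead trained libraries (median 7.35). These levels rest on 5 to 190 reads per library. The lowest count, 5 reads in wild type sedentary replicate 4, stood for 2.93 CPM with an exact 95% Poisson interval of 0.952 to 6.84, which covers counting error only. At that depth the lower libraries of miR-499-5p cannot be ordered.

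**Figure D1:**
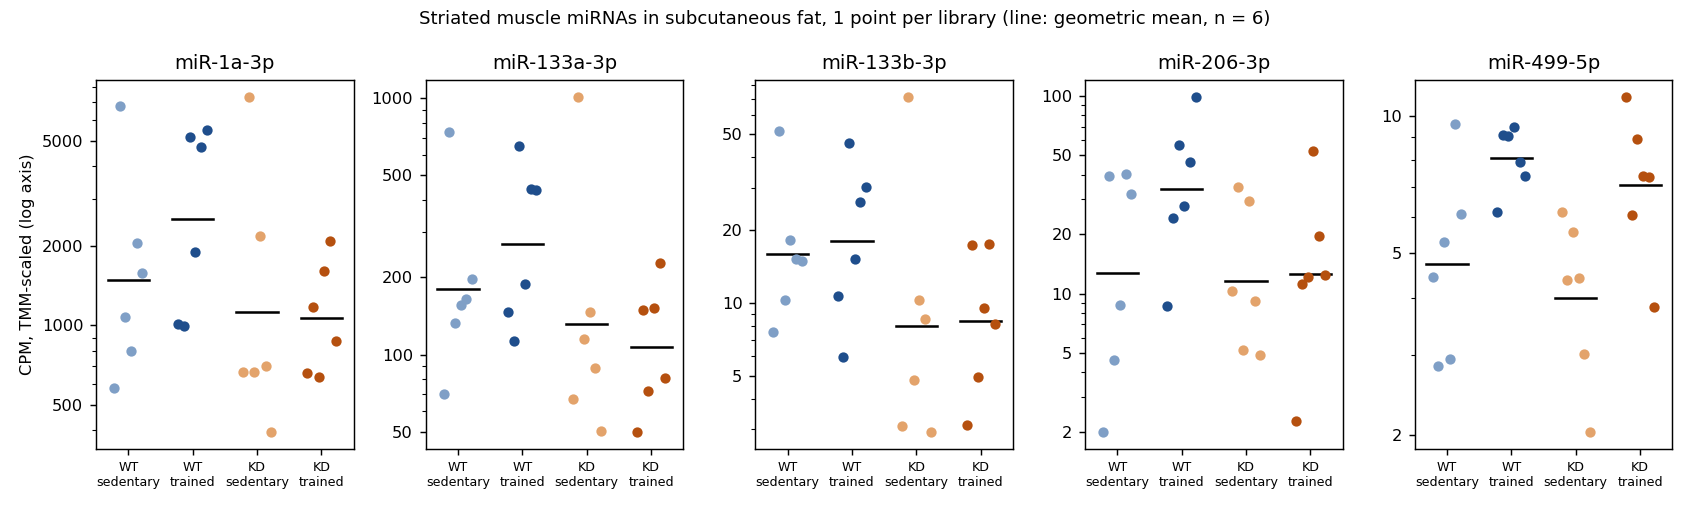
Level of each miRNA in CPM on log axes, 1 point per library, grouped by genotype (WT, wild type; KD, kinase dead) and training, with a line at the geometric mean of the 6 libraries. The highest miR-1a-3p points, up to 7366 CPM, lie in both sedentary groups and the wild type trained group, while miR-499-5p stays between 2.03 and 11.02 CPM.

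The summed level of the 5 miRNAs left a gap between 5 high libraries and the rest, with 3, 1, 1 and 0 high libraries in the wild type trained, wild type sedentary, kinase dead sedentary and kinase dead trained groups. It was 5281 CPM or more in 5 libraries, up to 8489, and ran from 455 to 2375 CPM in the remaining 19. The high libraries were kinase dead sedentary replicate 2, wild type sedentary replicate 2 and wild type trained replicates 3, 5 and 6. miR-499-5p had no such gap: its levels ran from 2.84 to 9.04 CPM among the high libraries and from 2.03 to 11.02 CPM among the remainder. In bulk tissue, more cells of a type and more RNA per cell cannot be told apart.

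Other miRNAs were set beside this split from lists of other tissues and cells. The lymphocyte list (miR-150, miR-142a and miR-155) summed to 1464 to 3168 CPM in the 5 high libraries and 1363 to 20964 in the 19. In the 7 libraries with over 2000 CPM of miR-150-5p the muscle sum was 455 to 1181 CPM (median 812), and in the other 17 it was 728 to 8489 CPM (median 2139). Red cell miRNAs summed to 1465 to 4727 CPM in the 5 and 1338 to 9415 in the 19. The part of the red cell miRNAs in the result was not tested. For the lymphocyte miRNAs, fits without the 7 libraries or with a covariate made 0 calls among the 5. The main fit also made 0, so this count cannot show what part they had. Some estimates changed sign without the 7 libraries. One was the log2 fold change of miR-1a-3p between sedentary genotypes, from -0.11 to 0.16. No listed miRNA is particular to white fat cells, so the tissue label has no defining marker here.

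Within a group, 4 of the 5 miRNAs were among the 28 most variable of the 582 tested. The within-group SD of log2 CPM was 1.21 for miR-1a-3p, 1.15 for miR-133a-3p, 1.17 for miR-133b-3p and 1.38 for miR-206-3p. The median over all 582 tested miRNAs was 0.41, and these 4 ranked 22, 28, 27 and 14 by SD. miR-499-5p, at 0.48, ranked 218, so its spread was near that median.

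From library to library the 4 variable miRNAs moved together, whereas miR-499-5p had no correlation with them that passed the threshold. Because the 5 high libraries stand apart, correlations of log2 CPM are given over the other 19. The 10 pairs were tested by permutation and adjusted with the Benjamini-Hochberg method. Group means were not subtracted and libraries rich in lymphocyte miRNAs were kept, so the p-values also take in differences between such sets of libraries. miR-1a-3p with miR-133a-3p gave a Pearson r of 0.854 (adjusted permutation p = 5e-05) and a Spearman rho of 0.830 (adjusted permutation p = 0.0002). miR-1a-3p with miR-206-3p gave r = 0.786 (adjusted permutation p = 0.000233) and rho = 0.746 (adjusted permutation p = 0.00117). miR-1a and miR-133a are cut from shared transcripts, whereas miR-206 comes from another gene. Whether miR-1a and miR-206 share reads was not tested.

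miR-1a-3p with miR-133b-3p, which lie on different chromosomes, gave r = 0.741 (adjusted permutation p = 0.001) and rho = 0.747 (adjusted permutation p = 0.00122). miR-133a-3p with miR-133b-3p gave r = 0.884 (adjusted permutation p = 5e-05) and rho = 0.893 (adjusted permutation p = 0.0001), although their reads may be shared. miR-133a-3p with miR-206-3p gave r = 0.665 (adjusted permutation p = 0.00436) and rho = 0.6246 (adjusted permutation p = 0.0109). Without the 2 libraries farthest from the median of the first-named miRNA, r was 0.843, 0.774, 0.717, 0.818 and 0.545 in the order given.

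The neighbours miR-133b-3p and miR-206-3p, which lie in 1 long noncoding RNA, had the lowest correlation among the 4. Their r was 0.5005 (adjusted permutation p = 0.0492) and 0.491 without the 2 farthest libraries. Their rho was 0.421 (adjusted permutation p = 0.125), so the rank correlation did not pass the threshold of 0.05.

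None of the 4 pairs with miR-499-5p passed it. Its r over the 19 libraries was 0.443 with miR-1a-3p (adjusted permutation p = 0.0823), 0.325 with miR-206-3p (adjusted permutation p = 0.216), 0.241 with miR-133a-3p (adjusted permutation p = 0.355) and 0.0598 with miR-133b-3p (adjusted permutation p = 0.81). The matching rho values were 0.277, 0.372, 0.184 and 0.0228, with adjusted permutation p of 0.311, 0.167, 0.497 and 0.927. These values rest on as few as 5 reads of miR-499-5p in a library.

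Within single groups of 6 libraries the r of miR-1a-3p was high with miR-133a-3p and lower with miR-499-5p. The high libraries are included here, so r in the groups that hold them rests in part on them. The r of miR-1a-3p with miR-133a-3p was 0.946 in wild type sedentary, 0.969 in wild type trained, 0.955 in kinase dead sedentary and 0.952 in kinase dead trained libraries. The r of miR-1a-3p with miR-499-5p was -0.09, 0.136, 0.289 and -0.22 in the same order. That of miR-133b-3p with miR-499-5p was -0.46, 0.066, 0.106 and -0.50. In kinase dead sedentary libraries miR-133b-3p with miR-206-3p (0.803) stood above miR-133a-3p with miR-206-3p (0.767), unlike over the 19 libraries. The median r over the 10 pairs was 0.727, 0.755, 0.785 and 0.644 in the 4 groups. It was 0.692 over all 24 libraries after the group means were subtracted. These within-group values are descriptions.

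**Figure D2:**
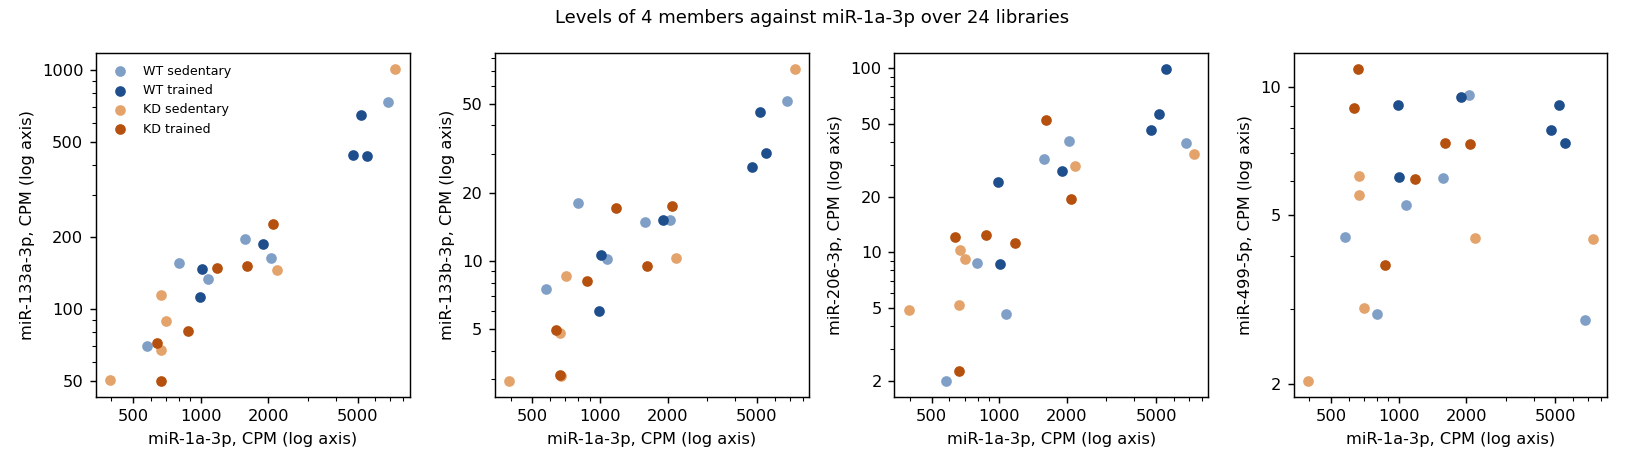
CPM of miR-133a-3p, miR-133b-3p, miR-206-3p and miR-499-5p against miR-1a-3p in the 24 libraries, on log axes, coloured by group. The first 3 climb with miR-1a-3p and the 5 libraries with 4759 CPM of it or more stand apart at the right, while miR-499-5p runs from 2.84 to 9.04 CPM in those 5 and from 2.03 to 11.02 CPM in the other 19.

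The promoters of 2 host genes show the sequence upstream of 1 copy each of miR-1a and miR-133a and of the gene that holds miR-499. The counts could not tell these copies from the other ones, so the correlation cannot be assigned to this promoter. They are the 250 bases before the start of Mir1a-1hg (chr2:180385354-180385603, plus strand) and of Myh7b (chr2:155610993-155611242, plus strand), from RefSeq on GRCm38.p6. Capitals mark each CANNTG, the general E-box core, of which myogenic factors such as MyoD bind only some forms. The motif reads the same on both strands, and CAGCTG is one of its forms.
Mir1a-1hg: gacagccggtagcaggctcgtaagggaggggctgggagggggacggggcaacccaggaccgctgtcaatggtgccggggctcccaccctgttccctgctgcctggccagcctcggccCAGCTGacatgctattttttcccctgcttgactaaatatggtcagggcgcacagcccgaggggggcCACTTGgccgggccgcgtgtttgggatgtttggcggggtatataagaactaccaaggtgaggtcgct
Myh7b: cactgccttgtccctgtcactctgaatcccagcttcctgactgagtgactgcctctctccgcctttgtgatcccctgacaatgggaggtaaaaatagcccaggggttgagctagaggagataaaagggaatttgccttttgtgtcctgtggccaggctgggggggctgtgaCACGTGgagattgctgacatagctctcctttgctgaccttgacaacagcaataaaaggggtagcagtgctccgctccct
The Mir1a-1hg window held CANNTG 2 times, 1 of them CAGCTG at position -133 from the start. The Myh7b window held CANNTG 1 time, as CACGTG at position -79, and CAGCTG 0 times. Of 32851 promoter windows of this length, 66.2% held CANNTG and 13% held CAGCTG, so a match is common and is a description of letters, not of a bound site.

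Training in wild type mice was accompanied by higher fitted levels of all 5 miRNAs, none past the threshold. Beside the ranges given above, the fitted log2 fold change was 1.03 for miR-206-3p (SE 0.71) and 0.63 for miR-499-5p (SE 0.29, 95% interval 0.04 to 1.23). It was 0.59 for miR-1a-3p (SE 0.68), 0.44 for miR-133a-3p (SE 0.67) and 0.19 for miR-133b-3p (SE 0.69). The median of the 5 was 0.59, against 0.01 over all 582 miRNAs. The mean of miR-499-5p was 5.20 ± 2.50 CPM in sedentary and 8.17 ± 1.26 CPM in trained libraries (SD, n = 6 each). The sedentary median was exceeded by 6 of 6 trained libraries for miR-499-5p and by 5 of 6 for miR-206-3p.

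By edgeR's quasi-likelihood test, 0 of the 5 passed a Benjamini-Hochberg adjusted p of 0.05 for training in wild type, as did 0 of all 582 (0%). For miR-499-5p the adjusted p was 0.779 in edgeR. At an unadjusted p under 0.05, miR-499-5p was 1 of 5 and the background was 31 of 582 (5.33%) in edgeR and 38 (6.53%) in DESeq2, which also made 0 calls. No member's groups were free of overlap, against 1 of 582 (0.172%). The labels do not say whether the libraries came from separate animals, so these p-values measure the spread between libraries. Without the 5 high libraries the log2 fold changes were 0.05 for miR-1a-3p, 0.12 for miR-206-3p, -0.35 for miR-133b-3p and 0.45 for miR-499-5p. That setting leaves out libraries by the level compared, more from wild type trained than from wild type sedentary. It thus shrinks the difference in part by its choice.

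In kinase dead mice, training was accompanied by lower fitted levels of miR-1a and both miR-133 and by higher ones of miR-499, again with 0 calls. The log2 fold change was -0.76 for miR-1a-3p (SE 0.68), -1.02 for miR-133a-3p (SE 0.68) and -0.77 for miR-133b-3p (SE 0.70). It was 0.26 for miR-206-3p (SE 0.71) and 0.84 for miR-499-5p (SE 0.29, 95% interval 0.24 to 1.44). The 3 negative values depended on kinase dead sedentary replicate 2, the library with the highest muscle sum. Without it they were 0.27, 0.30 and 0.69.

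The mean of miR-499-5p was 4.27 ± 1.55 CPM in sedentary and 7.42 ± 2.45 CPM in trained kinase dead libraries (SD, n = 6 each). For miR-499-5p, 5 of the 6 trained kinase dead libraries lay above the sedentary median and 4 above the sedentary maximum. Its adjusted p was 0.945 in edgeR. Of the 5 miRNAs, 1 had an unadjusted p under 0.05, against 14 of 582 (2.41%) in edgeR and 15 (2.58%) in DESeq2, and both tools made 0 calls at the adjusted threshold. Without any 1 library its fold change stayed between 0.67 and 0.99.

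Averaged over the genotypes, miR-499-5p was the 1 miRNA of the 5 whose interval left out 0. Its log2 fold change for training was 0.74 (SE 0.21, 95% interval 0.31 to 1.16), or 1.67-fold. By edgeR it ranked 2 of 582 by p, with an unadjusted p of 0.00147 and an adjusted p of 0.427. Over the leave-one-library-out fits the value ran from 0.63 to 0.81 and the edgeR adjusted p from 0.187 to 0.727. Over the other settings the adjusted p ran from 0.0590 (lymphocyte score as covariate) to 0.995 (log2 library total as covariate). It passed in none of these fits. With the library total as covariate the value was 0.71. Library totals were 1.60, 3.46, 3.47, 4.03, 6.10 and 20.9 M reads in wild type sedentary. In wild type trained they were 4.63, 9.08, 10.5, 11.1, 11.3 and 13.2 M reads. Training and depth cannot be fully told apart there.

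The other 4 lay on both sides of 0 in this average. The log2 fold change was -0.09 for miR-1a-3p (SE 0.48), -0.29 for miR-133a-3p (SE 0.48), -0.29 for miR-133b-3p (SE 0.49) and 0.65 for miR-206-3p (SE 0.50). At an unadjusted p under 0.05 there was 1 of 5, against 36 of 582 (6.19%) in edgeR and 38 (6.53%) in DESeq2.

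**Figure D3:**
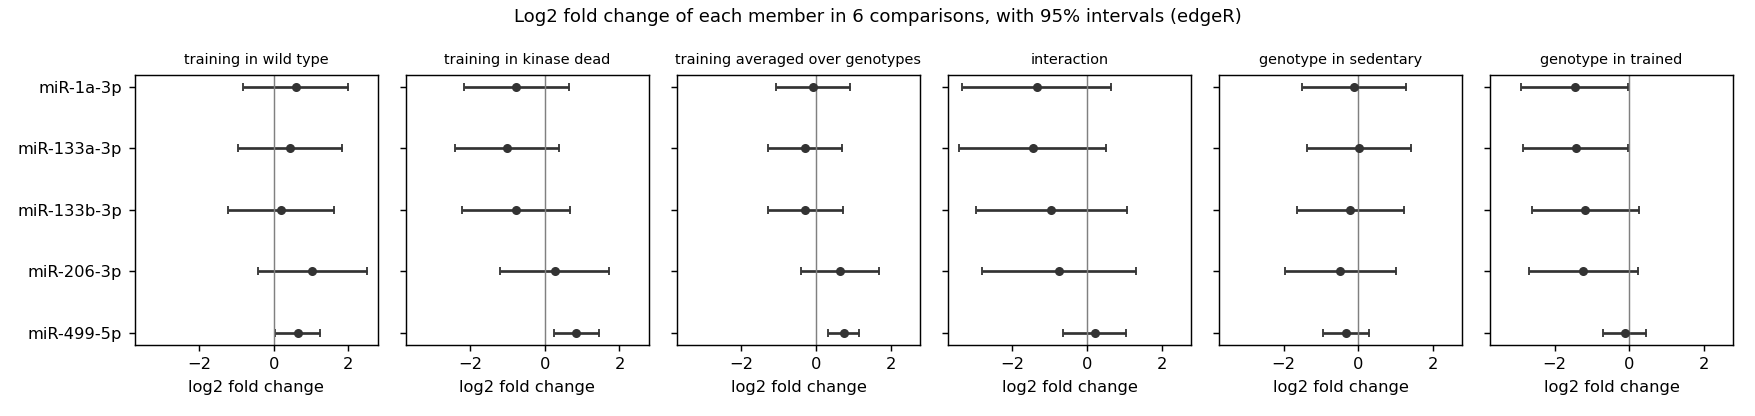
Log2 fold change of each miRNA with its 95% interval from edgeR in the 6 comparisons, with a line at 0. Intervals of miR-1a-3p, miR-133a-3p, miR-133b-3p and miR-206-3p span several log2 units, and those of miR-499-5p are narrower and lie above 0 for training (0.31 to 1.16 in the average).

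The difference between the training effects of the 2 genotypes was negative for 4 of the 5 and passed for 0. It was -1.35 on the log2 scale for miR-1a-3p (SE 0.96), -1.46 for miR-133a-3p (SE 0.95), -0.96 for miR-133b-3p (SE 0.98) and -0.76 for miR-206-3p (SE 1.00). For miR-499-5p, whose training values had the same sign in both genotypes, it was 0.21 (SE 0.41, 95% interval -0.64 to 1.05). None of the 5 had an unadjusted p under 0.05, against 13 of 582 (2.23%) in edgeR and 10 (1.72%) in DESeq2. Without the 5 high libraries the values of miR-1a-3p, miR-133a-3p, miR-133b-3p and miR-206-3p were 0.28, 0.37, 1.11 and 0.53. That setting leaves out libraries by the level compared, and none from kinase dead trained, so the shift follows in part from its choice.

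Between sedentary genotypes the differences were smaller than their standard errors, except for miR-499-5p, and 0 of the 5 passed the threshold. The log2 fold change of kinase dead over wild type was -0.11 for miR-1a-3p, 0.02 for miR-133a-3p, -0.21 for miR-133b-3p, -0.47 for miR-206-3p and -0.32 for miR-499-5p. Their standard errors were 0.68, 0.67, 0.69, 0.71 and 0.30. The background was 7 of 582 (1.2%) at an unadjusted p under 0.05 in edgeR and 6 (1.03%) in DESeq2, with 0 of the 5 among the edgeR ones. The 2 high libraries, 1 in each group, moved the values of miR-1a-3p, miR-133a-3p and miR-133b-3p most. Without kinase dead replicate 2, miR-133b-3p stood at -1.67, and without wild type replicate 2, miR-1a-3p stood at 0.78.

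Among trained mice all 5 had lower fitted levels in the kinase dead group, and 0 passed the threshold. The log2 fold change was -1.46 for miR-1a-3p (SE 0.69, 95% interval -2.89 to -0.02) and -1.44 for miR-133a-3p (SE 0.68, 95% interval -2.85 to -0.02). It was -1.17 for miR-133b-3p (SE 0.70), -1.24 for miR-206-3p (SE 0.71) and -0.12 for miR-499-5p (SE 0.28). The median of the 5 was -1.24, against 0.01 over all 582. None of the 6 kinase dead trained libraries reached the wild type trained median of miR-1a-3p, miR-133a-3p or miR-133b-3p. For miR-1a-3p that median, 3329 CPM, falls in a gap between wild type trained libraries at 1899 and 4759 CPM. The groups overlapped, with 635 to 2089 CPM in kinase dead trained and 992 to 5506 in wild type trained libraries.

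By edgeR's quasi-likelihood test, miR-1a-3p and miR-133a-3p had unadjusted p of 0.0467 and 0.0471, ranks 2 and 3 of 582, and both had an adjusted p of 0.996. At an unadjusted p under 0.05 these were 2 of 5, against 4 of 582 (0.687%) in edgeR and 9 (1.55%) in DESeq2. The other 2 of the 4 in edgeR, named after their values were seen, were miR-1b-5p, which is counted from miR-1a reads, and the liver miRNA miR-122-5p, so 3 of the 4 rest on reads of the members. miR-1a-3p and miR-133a-3p share their high libraries. Without the 5 high libraries, 3 of which are wild type trained, the values were -0.08 for miR-1a-3p, -0.22 for miR-133a-3p, -0.03 for miR-133b-3p and -0.05 for miR-206-3p. That setting leaves out libraries by the level compared, and none from kinase dead trained, so it shrinks the difference by its choice. Over the fits without 1 library, miR-206-3p ran from -1.91 to -0.80 and miR-1a-3p from -1.72 to -1.22. The comparisons share groups, so their values are not independent of each other.

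Ratios within a library take out the summed level and need no scaling between libraries. miR-133a-3p stood at 6.71 to 19.5 reads per 100 reads of miR-1a-3p over the 24 libraries, a 2.91-fold range, while miR-1a-3p itself ranged 18.7-fold. miR-133b-3p stood at 4.33 to 11.8 per 100 of miR-133a-3p, a 2.73-fold range. These ratios of miRNAs with shared transcripts or near-identical sequence were the steadiest of the 5 computed.

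The other 3 ratios were wider. miR-206-3p stood at 0.353 to 3.26 reads per 100 of miR-1a-3p, a 9.24-fold range. miR-133b-3p stood at 18.1 to 363 per 100 of miR-206-3p, a 20.1-fold range, although both lie in 1 host RNA. miR-499-5p stood at 0.0431 to 1.67 per 100 of miR-1a-3p, a 38.9-fold range, lowest in wild type sedentary replicate 2 and kinase dead sedentary replicate 2.

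The 5 ratios were compared in 4 contrasts with two-sided exact permutation tests over 924 splits of 6 against 6 libraries, and 0 of the 20 passed after Benjamini-Hochberg adjustment. The smallest unadjusted values belonged to miR-133b-3p over miR-133a-3p. Its mean log2 ratio was -3.49 ± 0.31 (SD, n = 6) in wild type sedentary and -3.89 ± 0.21 (SD, n = 6) in wild type trained libraries, a difference of -0.40 (exact permutation p = 0.0281, adjusted 0.390). In kinase dead sedentary libraries it was -4.01 ± 0.43 (SD, n = 6), -0.52 from the wild type (exact permutation p = 0.0390, adjusted 0.390). In kinase dead trained libraries it was -3.65 ± 0.38 (SD, n = 6).

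The ratio of miR-499-5p to miR-1a-3p carries the spread of miR-1a-3p. Its mean log2 difference with training was -0.03 in wild type (exact permutation p = 0.985) and 0.88 in kinase dead libraries (exact permutation p = 0.268). Between trained genotypes it was 1.06 (exact permutation p = 0.115). miR-133b-3p over miR-206-3p differed by -1.21 with training in wild type (exact permutation p = 0.0866), from 0.31 ± 1.31 to -0.90 ± 0.86 (SD, n = 6 each). The smallest adjusted p of the 20 was 0.390.

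**Figure D4:**
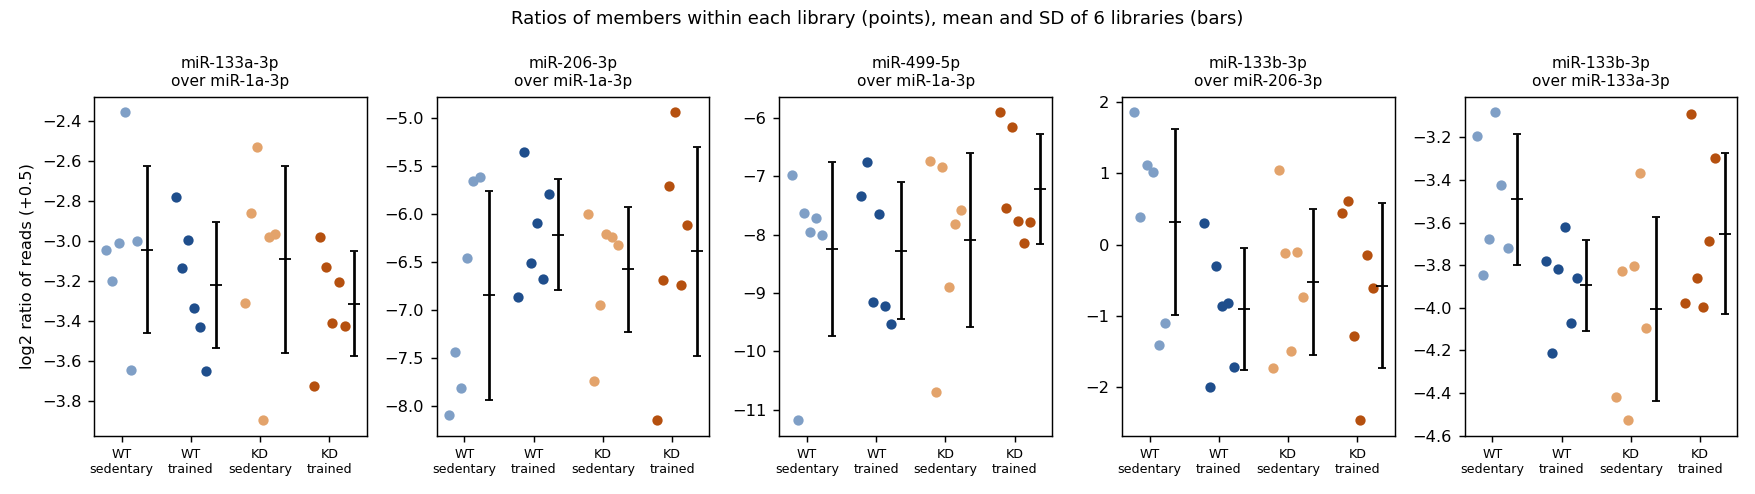
Log2 ratio of reads (0.5 added) of 2 miRNAs within each library, 1 point per library, with the mean and SD of 6 libraries beside them. Ratios of miR-133a-3p to miR-1a-3p keep to a 2.91-fold range, and those of miR-499-5p to miR-1a-3p spread over a 38.9-fold range with the lowest point at -11.2 in wild type sedentary.

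Other striated muscle miRNAs showed which of them went with the 5. Of 12 listed, 11 were in the table, 4 were tested and 0 passed in any comparison. The miRNAs encoded in the cardiac myosin genes were nearly absent, with 1 read of miR-208a-3p and 9 reads of miR-208b-3p over all 24 libraries. The 5p arm of miR-133a, which the rule did not choose, had a mean of 5.41 CPM and an r of 0.894 with the mean log2 CPM of the 5, after group means were subtracted. miR-486-5p, known from both muscle and red cells, had a mean of 417 CPM and an r of 0.193. miR-378a-3p, encoded in Ppargc1b and abundant in muscle and brown fat, had a mean of 13372 CPM and an r of 0.321. Its training value in wild type was 0.39 on the log2 scale (SE 0.15) and did not pass.

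Lists of other cell types gave r values of -0.57 for lymphocytes, 0.199 for red cells, 0.307 for smooth muscle, 0.325 for endothelium, 0.333 for brown and beige adipocytes and 0.262 for epithelium. Liver (miR-122-5p alone) gave 0.410 and nerve 0.407. In these lists 0 miRNAs passed in any comparison. The miR-122-5p level ran from 7.06 to 444 CPM in wild type trained and from 4.43 to 82.7 CPM in kinase dead trained libraries. Its part in the difference between the trained groups was not tested.

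Outside the muscle miRNAs none of the miRNAs compared was as close to the 5 as 4 of them were to each other. Of 353 other tested miRNAs with a mean of at least 10 CPM, the highest r with the score was 0.617, for miR-345-3p, at 34.8 to 70.4 CPM. It was followed by miR-574-3p (0.580), miR-338-5p (0.576), miR-3065-3p (0.576), miR-125b-2-3p (0.560) and miR-196a-5p (0.553), a miRNA of HOX clusters known to promote browning of fat. miR-3065-3p overlaps miR-338-5p on the other strand and shares its reads. The r of each of the 5 with the score of the other 4 was 0.956 for miR-1a-3p, 0.922 for miR-133a-3p, 0.855 for miR-133b-3p and 0.756 for miR-206-3p, and -0.01 for miR-499-5p.

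At the other end stood miR-467c-5p with an r of -0.67, miR-191-5p, an abundant miRNA of blood cells, with -0.64, and miR-150-3p, the minor arm of the lymphocyte miRNA, with -0.63. Over the 19 libraries without the high ones these were -0.60, -0.51 and -0.62, and that of miR-345-3p was 0.582. An r above 0.5 was seen for 16 of the 353 and one below -0.5 for 37, with a median of 0.0896. All points share library depth and the split by miR-150-5p, and these values are descriptions.

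**Figure D5:**
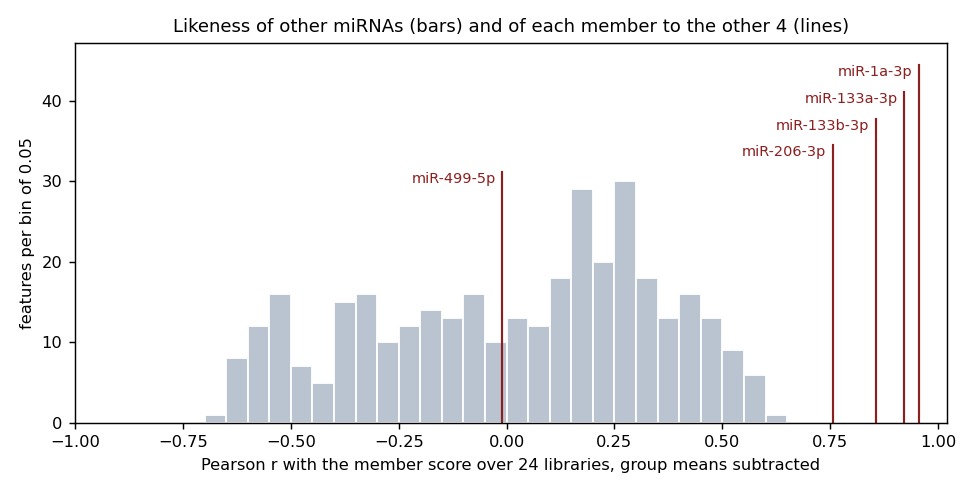
Histogram of Pearson r over 24 libraries, group means subtracted, between each of 353 other miRNAs and the mean log2 CPM of the 5, with red lines for each of the 5 against the other 4. The lines of miR-1a-3p, miR-133a-3p, miR-133b-3p and miR-206-3p (0.756 or more) lie beyond the highest bar, which ends near 0.617, and the line of miR-499-5p lies at -0.01, within the bars.

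The miRNAs most like miR-499-5p itself, named after their values were seen, were miR-664-5p (r = 0.649), miR-218-5p (r = 0.619) and miR-10b-3p (r = 0.618), over the 24 libraries with group means subtracted. For the other 4, the 3 closest miRNAs were in each case the rest of that group of 4, among the miRNAs compared. miR-1b-5p was left out of that comparison because it is counted from the reads of a miR-1a copy. The 5p arm of miR-133a, with a mean of 5.41 CPM and an r of 0.894 with the score of the 5, was also left out. It fell below the floor of 10 CPM, which did not apply to the 5 themselves. miR-499-5p was in none of the lists of the 3 closest.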

How the data were processed

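Small RNA of subcutaneous fat was extracted with TRIzol and prepared with an NEBNext small RNA kit, per the labels' protocols. The tools listed in the submitters' processing notes are featureCounts, Bowtie2, Trim Galore and CASAVA (1.8.2), with mm10 as the build. No source used here gives the settings for strand and multiple mapping. What the authors deposited was a table of raw read counts per locus for 2045 mature miRNA loci in 24 libraries. Group and training came from the labels, and replicate numbers in accession order only name libraries. Names were matched by coordinates to RefSeq (1670 loci) or GENCODE (375 loci).

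Counts of loci with the same mature identifier were summed (1907). Differences were tested in edgeR 4.0.16 (under R 4.3.3) by quasi-likelihood, with TMM factors and filterByExpr, in 1 fit of the 4 groups, with Benjamini-Hochberg adjustment over the 582 genes kept and a threshold of 0.05. It was tested on simulated data. Levels are TMM-scaled CPM. Ratios (0.5 added) were compared by exact permutation, and correlations with 100000 permutations. Sequencing depth of 1.60 to 23.6 M reads sets the precision of the scarce miRNAs. The alternatives were loci kept separate, RLE or no scaling, DESeq2 1.42.0, no filter, pairwise fits, covariates for lymphocyte miRNAs or library total, and leaving out libraries. Named miRNAs are the 5, their other arms and opposite strands, the listed muscle miRNAs, and the 6 highest and 3 lowest in r with the 5. The miRNAs and lists were chosen with earlier results of these data known.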

Additional observations from a re-analysis of the deposited data

Results flagged for a closer look

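For each of the 5 miRNAs and each of the 5 ratios, the highest and lowest library of every group of 6 was compared with the rest of its group by Dixon's gap on the log2 scale. Of 40 groups, 2 held such a library, and chance alone gives such a gap in about 1 in 20 groups. miR-133a-3p had 1014 CPM in kinase dead sedentary replicate 2, with a gap of 0.645 of the group's range in log2 CPM. The log2 ratio of miR-499-5p over miR-1a-3p was -11.2 in wild type sedentary replicate 2, the lowest of its group, with a gap of 0.756 of the range. Both libraries are among the 5 with over 5000 CPM of the 5 miRNAs summed.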

How the results depend on the processing

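With 10 other settings, 0 of the 5 miRNAs passed in any of the 6 comparisons, and with 4 other settings 0 of the 20 ratio tests passed; the same held in each of the 24 fits without 1 library. Of 290 other fold changes 271 kept their sign, and of 80 ratios 74 did. The median pairwise r of 0.692 was 0.618 without the 7 lymphocyte-rich libraries and 0.624 without the 5 libraries above 5000 CPM. The latter setting was chosen after seeing the data. It removes libraries by the very levels compared, so its shifts follow in part from that choice. Without those 5, signs turned for miR-1a-3p (training in kinase dead 0.33, average 0.19, interaction 0.28), miR-133a-3p (training in wild type -0.0044, in kinase dead 0.36, average 0.18, interaction 0.37, sedentary genotypes -0.59), miR-133b-3p (-0.35, 0.76, 0.21 and 1.11 for both trainings, average and interaction) and miR-206-3p (interaction 0.53). Log2 ratios turned as well: miR-206-3p over miR-1a-3p to -0.046 and miR-133b-3p over miR-206-3p to 0.26 for training in kinase dead, and miR-499-5p over miR-1a-3p to 0.41 in wild type. Without the lymphocyte-rich libraries, sedentary genotype values turned for miR-1a-3p (0.16) and miR-133b-3p (0.073), the interaction of miR-499-5p to -0.063, and log2 ratios to 0.022 (miR-133a-3p over miR-1a-3p, trained genotypes), -0.13 (miR-206-3p over miR-1a-3p, sedentary genotypes) and 0.18 (miR-133b-3p over miR-206-3p, training in kinase dead). With the log2 library total as a covariate, miR-133a-3p stood at -0.068 between sedentary genotypes, miR-133b-3p at -0.019 for training in wild type and miR-206-3p at -0.15 for training in kinase dead. The cause was not tested.

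Leaving out 1 library turned signs in 28 of 720 fold changes and 21 of 480 ratios. For miR-1a-3p the values ran from -1.14 to 0.78 between sedentary genotypes, -0.23 to 0.44 for average training and -1.07 to 0.27 for training in kinase dead. For miR-133a-3p they were -1.29 to 0.84, -0.47 to 0.38 and -1.36 to 0.30. For miR-133b-3p they were -1.67 to 0.43, -0.48 to 0.45 and -1.10 to 0.69, with -1.62 to 0.48 for the interaction and -0.14 to 0.79 for training in wild type. miR-206-3p ran from -0.46 to 0.60 for training in kinase dead, and miR-499-5p from -0.18 to 0.011 between trained genotypes and -0.10 to 0.40 for the interaction. Log2 ratios ran from -0.17 to 0.11 (miR-133a-3p over miR-1a-3p, sedentary genotypes), -0.29 to 0.33 (miR-133b-3p over miR-206-3p, training in kinase dead), -0.46 to 0.18 and -0.10 to 0.54 (miR-206-3p over miR-1a-3p, trained genotypes and training in kinase dead), and -0.44 to 0.67 and -0.62 to 0.22 (miR-499-5p over miR-1a-3p, sedentary genotypes and training in wild type).

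No paired analysis was possible because the replicate numbers follow accession order and pair nothing. Depth limits miR-499-5p, miR-206-3p and miR-133b-3p most, with as few as 5, 9 and 12 reads in a library.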
